A study of Homo sapiens with 6 samples.

Results

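The genes described here encode 8 transcription factors of monocyte and macrophage identity and of the interleukin-4 (IL-4) response: SPI1, CEBPA, CEBPB, KLF4, IRF8, IRF4, BATF3 and MAF. They were chosen by name, with earlier results of these data known, so a count of members past a threshold is not separate evidence. All 8 were among the 17042 genes of the deposited table and among the 13405 genes tested. All libraries hold polyadenylated RNA of THP-1, a cell line grown from a human monocytic leukaemia. In the 3 knockdown libraries THP-1 macrophages had received small interfering RNA (siRNA) against the long noncoding RNA RP11-184M15.1 with a lipid transfection reagent ahead of IL-4. The 3 control libraries came from cells whose genotype is given as WT, and what they received in place of that siRNA is not stated. In both groups PMA, a phorbol ester, had been given at 100 ng/mL for 24 hours to turn the cells into macrophages, and IL-4 followed at 20 ng/mL for another 24 hours. A single leukaemia line stands for macrophages here, and whether its replicates were grown as separate cultures is not stated. The p-values therefore speak only of differences against library-to-library spread, part or all of which may be technical. The level of RP11-184M15.1 is not analysed here, so the knockdown itself was not checked.

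PU.1, the product of SPI1, is an ETS-family factor that opens the regulatory regions of most myeloid genes, and C/EBPα, from CEBPA, joins it to fix the granulocyte and monocyte fate. C/EBPβ, from CEBPB, takes over in maturing and activated macrophages. KLF4 and IRF8 drive monocyte formation, IRF8 and BATF3 act together in the cross-presenting dendritic cells, IRF4 is induced by IL-4 and takes part in alternative activation, and MAF supports the mature, non-dividing macrophage state. IRF4 and IRF8 bind DNA weakly alone and are recruited by partners such as PU.1 and BATF proteins.

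Library totals were 12029360 to 14181343 counts in knockdown and 10450043 to 12113848 in control, and levels are given as CPM, which is counts relative to library size after scaling by the trimmed mean of M-values (TMM), a correction for differing library composition. A gene without any count could still have stood at up to 0.21 to 0.288 CPM, the worth of 3 counts. All 10 monocyte and macrophage markers examined were present, with a summed level of 4200 to 4290 CPM in knockdown and 4183 to 4408 CPM in control. Of the markers of other blood cells, the B cell list summed to at most 7.6 CPM and the T and NK cell list to at most 7.85 CPM, while the granulocyte list reached 84.2 CPM and the dendritic cell list 1140 CPM. CD3D, CD3E, CD2, MS4A1, CLEC9A and XCR1 were not among the genes of the deposited table under these names. The same held for the granulocyte markers MPO, CEACAM8, LTF and CAMP, so the sums leave all of these out. The third knockdown library held 92 HBB and 89 HBA1 counts, globin transcripts of red cells, against at most 2 in each of the other 5 libraries. Mitochondrial transcripts took 2.39% to 2.48% of counts in knockdown and 2.31% to 3.01% in control.

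IRF8 fell in knockdown, and it was the only member of the 8 that passed the threshold, an adjusted p of 0.05 over all tested genes. IRF4, its closest relative among the members, also lay lower in every knockdown library but did not pass. CEBPB lay higher in every knockdown library and did not pass either. SPI1 and CEBPA, the factors at the top of the myeloid programme, had log2 fold changes of -0.04 and 0.01. Among all tested genes, 2.83% passed the threshold, 1.22% as higher and 1.61% as lower in knockdown.

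**Figure D1:**
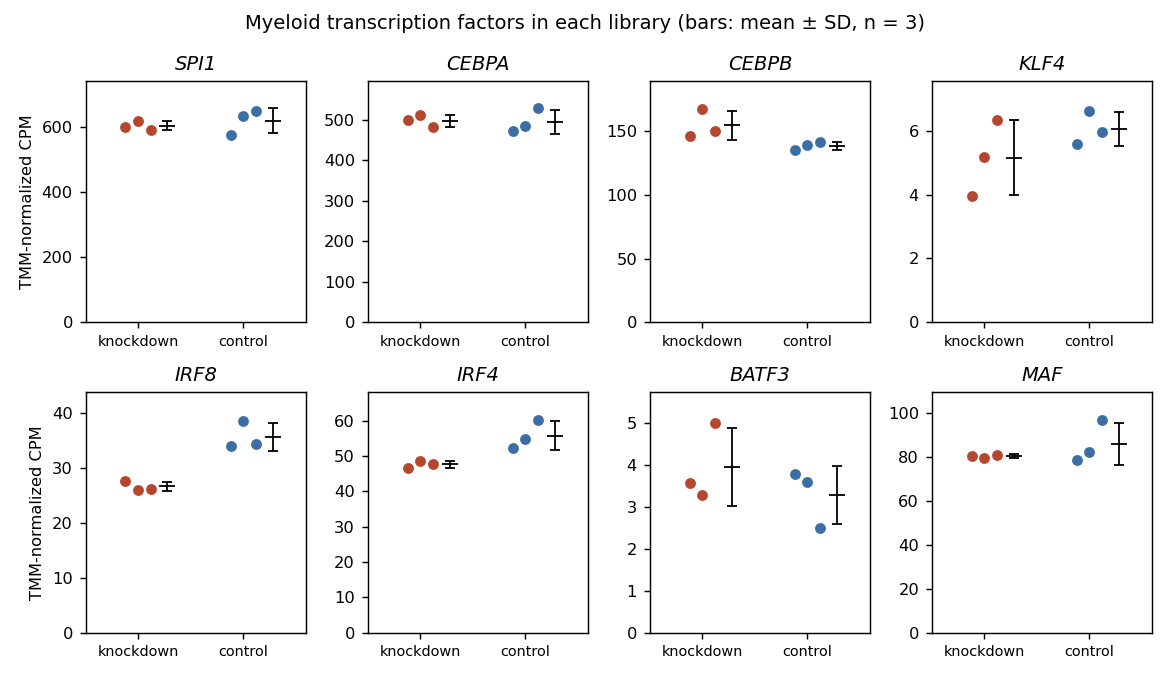
Normalized level of each factor in every library: the vertical axes give CPM with TMM scaling, each starting at 0, points are single libraries of knockdown and control, and bars are the mean ± SD (n = 3). For IRF8 the 3 knockdown libraries sit between 26.1 and 27.7 CPM, all below the control libraries at 34.0 to 38.6 CPM.

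Per kilobase of the longest annotated coding transcript, which makes levels comparable between genes, SPI1 was the most abundant of the 8, at 431 ± 9.99 CPM per kilobase in knockdown and 442 ± 27.3 in control (SD, n = 3 each). CEBPA followed at 190 ± 5.67 in knockdown and 189 ± 11.2 in control, and CEBPB at 79.0 ± 5.85 in knockdown and 70.9 ± 1.68 in control. MAF, IRF4 and IRF8 formed a middle tier. MAF had 12.6 ± 0.12 CPM per kilobase in knockdown and 13.4 ± 1.51 in control. IRF4 had 8.95 ± 0.19 in knockdown and 10.5 ± 0.76 in control. IRF8 had 8.81 ± 0.29 in knockdown and 11.8 ± 0.85 in control. BATF3 and KLF4 were the scarcest, with BATF3 at 4.04 ± 0.94 in knockdown and 3.36 ± 0.71 in control and KLF4 at 1.83 ± 0.42 in knockdown and 2.15 ± 0.19 in control. In knockdown the ranges of IRF4 and IRF8 overlapped and the other neighbours in this order did not. In control the ranges of MAF and IRF8 overlapped, as did those of IRF8 and IRF4. The places of the middle tier rest on the transcript length used: with the mean length of the coding transcripts 3 of the 8 members changed place in knockdown, and IRF8 then stood at 23.5 CPM per kilobase beside MAF at 23.5. In control IRF8 then stood above MAF, and KLF4 above BATF3.

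**Figure D2:**
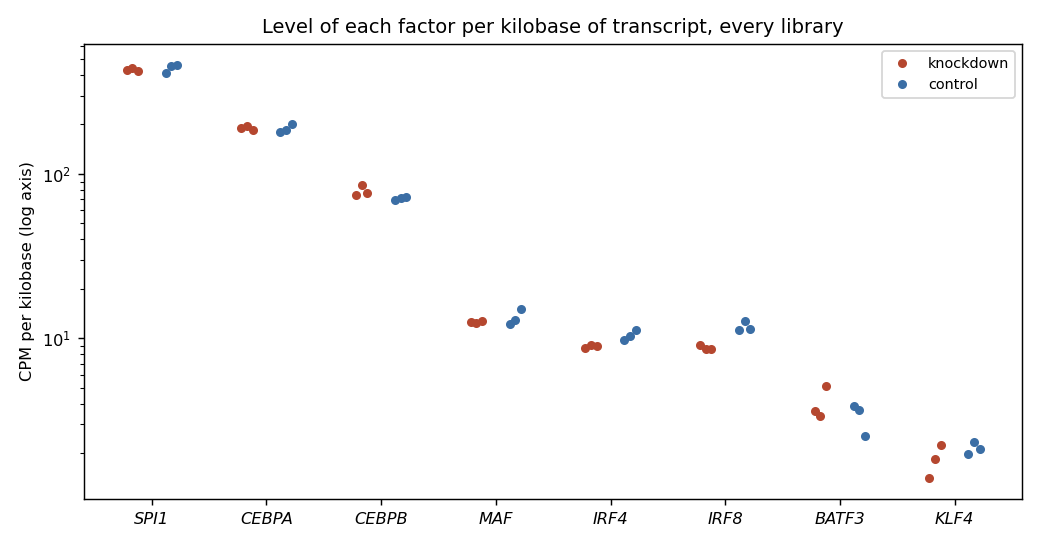
Level of each factor per kilobase of its longest coding transcript, on a log axis, with a point for each of the 3 knockdown and 3 control libraries and genes ordered by the knockdown mean. SPI1, CEBPA and CEBPB stand well above the other 5 factors in both groups, and IRF4 and IRF8 lie at nearly the same level in knockdown.

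RefSeq promoter windows (GRCh38.p14, 250 bases before to 50 after a transcript start) were at hand for 6 of the 8 members, all but SPI1 and BATF3. CEBPB and IRF8 each have a second window, whose stretch is not shown. The short stretches that follow run from 45 to 16 bases before the start, 5′ to 3′ on the gene's strand, and are shown because those of IRF4, MAF, CEBPA and CEBPB hold the TATA element TATAAA, in capitals, while that of IRF8, shown beside them as the member that fell, does not. The stretches lie at chr6:391707-391736 (plus strand) for IRF4, chr16:79600753-79600782 (minus) for MAF, chr19:33302550-33302579 (minus) for CEBPA, chr20:50190785-50190814 (plus) for CEBPB and chr16:85902785-85902814 (plus) for IRF8.
IRF4: ccccagagagttcTATAAAgttcctctttc
MAF: tgacgtcacgagtgcTATAAAactcagcaa
CEBPA: acgcggcctgccgggTATAAAagctgggcc
CEBPB: tgctacgggccgccctTATAAAtaaccggg
IRF8: gtggctgcaggtttcccacggagctttcag

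TATAAA began between 35 and 25 bases before the start, on the gene's strand, in 4 of the 6 members with a window and in 2.17% of all 35116 windows, and anywhere on either strand in the same 4 members and in 11.5% of all windows. Members were counted as genes with any window that held it, and the shares count single windows, so the figures are not on the same basis. The 35116 windows, called all windows here, leave out a chromosome that holds none of the members. No window of KLF4 or IRF8 held TATAAA, and neither did the CEBPB window that is not shown. The RefSeq starts of CEBPA and CEBPB behind the stretches shown lie 30 and 96 bases inside those genes as GENCODE 29 draws them. For IRF8 the 2 windows belong to starts 4027 and 4212 bases inside the gene, so the sequence at its first annotated start was not used here. The KLF4 window belongs to a start 713 bases inside that gene. On both strands, none of the 6 members' windows held the IRF element (GAAA, any 2 bases, GAAA; 3.57% of all windows), the composite element of PU.1 and IRF factors (GGAA, any 2 bases, GAAA; 2.82%), the PU.1 element GAGGAAG (13.6%), the C/EBP element (TTGC, any 2 bases, AA; 10.5%) or the STAT6 element (TTC, any 4 bases, GAA; 6.44%). The first 3 of these share letters and can overlap. The elements were chosen after the windows had been seen, and a match in letters is a description of the window only.

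IRF8 (ENSG00000140968.10, GRCh38 chromosome 16, 85898803 to 85922609, plus strand) directs progenitors to the monocyte and dendritic fates; the microRNA gene MIR6774 lies within it on the same strand. Its counts were 342, 372 and 320 in the knockdown libraries and 360, 461 and 357 in the control libraries, which corresponds to 27.7, 26.1 and 26.3 CPM in knockdown and 34.0, 38.6 and 34.4 CPM in control. Every knockdown library lay below every control library. The mean was 26.7 ± 0.88 CPM in knockdown and 35.7 ± 2.56 CPM in control (SD, n = 3 each), and the level fell by 25.3% (log2 fold change -0.42 ± 0.08 SE, 95% interval -0.58 to -0.26, edgeR quasi-likelihood adjusted p = 0.00535). By p-value the gene stood 113th of the 13405 tested. In bulk RNA, fewer cells with the transcript and less transcript per cell cannot be told apart. The call did not hold when knockdown replicate 2 (log2 fold change -0.40, adjusted p = 0.0508) or control replicate 2 (-0.36, adjusted p = 0.0521) was left out, although the direction was the same. Without the third knockdown library, which carried the globin counts, the log2 fold change was -0.41 (adjusted p = 0.0379).

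IRF4 (ENSG00000137265.14, chromosome 6, 391739 to 411447, plus strand), the IL-4-induced member of the same family, had 577, 695 and 581 counts in knockdown and 553, 656 and 626 in control. After scaling these were 46.7, 48.8 and 47.7 CPM in knockdown, against 52.2, 54.9 and 60.2 CPM in control. The groups did not overlap, with control replicate 3 the highest library. The log2 fold change was -0.22 ± 0.06 SE (95% interval -0.36 to -0.09), and the adjusted p of 0.0785 did not pass. The gene passed only when control replicate 1 was left out (-0.27, adjusted p = 0.0201).

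Whether IRF8 and IRF4 shifted by different amounts was asked through their ratio within each library. The CPM of IRF4 was 1.69, 1.87 and 1.82 times that of IRF8 in knockdown and 1.54, 1.42 and 1.75 times in control. The groups overlapped, and the mean log2 ratio was higher by 0.19 in knockdown (two-sided exact permutation test over libraries, p = 0.2, and 0.3 adjusted over the 3 ratios computed, where 3 libraries against 3 cannot give less than 0.1). A difference between the changes of these relatives was thus not shown.

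CEBPB (ENSG00000172216.5, chromosome 20, 50190734 to 50192689, plus strand), the C/EBP factor of activated macrophages, had 1803, 2389 and 1829 counts in knockdown and 1431, 1658 and 1473 in control. These were 146, 168 and 150 CPM in knockdown and 135, 139 and 142 CPM in control, so the groups did not overlap, and knockdown replicate 2 stood above the rest. The log2 fold change was 0.16 ± 0.05 SE (95% interval 0.04 to 0.28), with an adjusted p of 0.153, and it was 0.10 without knockdown replicate 2. CEBPB-AS1, which overlaps the gene on the opposite strand, had 1 to 6 counts in any library, and the sources used here do not say whether strand was used.

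CEBPA (ENSG00000245848.2, chromosome 19, 33299934 to 33302564, minus strand), the factor that commits progenitors to the myeloid line, had 499, 514 and 484 CPM in knockdown and 474, 485 and 530 CPM in control. The libraries of the groups were interleaved, and the log2 fold change was 0.01, with a 95% interval of -0.10 to 0.11. Its sign turned when some libraries were left out. AC008738.5, antisense to CEBPA, had 22 to 41 counts beside the 5013 to 7321 of CEBPA. The ratio of CEBPA to CEBPB was 3.42, 3.06 and 3.22 in knockdown and 3.50, 3.50 and 3.74 in control. These groups did not overlap (difference in mean log2 ratio -0.15, two-sided exact permutation p = 0.1, the smallest possible, and 0.3 adjusted over the 3 ratios).

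SPI1 (ENSG00000066336.11, chromosome 11, 47354860 to 47378576, minus strand) had 600, 620 and 592 CPM in knockdown and 577, 636 and 649 CPM in control. The knockdown libraries lay within the control range, and the log2 fold change was -0.04 with a 95% interval of -0.14 to 0.07 (adjusted p = 0.78). SPI1 and CEBPA had at least 5013 counts in every library, and their 95% intervals ran from -9.37% to 4.64% for SPI1 and from -6.41% to 8.06% for CEBPA, which leaves out a change as large as the estimate for IRF8.

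MAF (ENSG00000178573.6, chromosome 16, 79585843 to 79600714, minus strand), the mature-macrophage factor, had 80.4, 79.4 and 81.0 CPM in knockdown and 78.4, 82.2 and 96.7 CPM in control. Control replicate 3 stood apart, and the log2 fold change of -0.09 (95% interval -0.24 to 0.05, adjusted p = 0.56) became 0.00012 without it.

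KLF4 (ENSG00000136826.14, chromosome 9, 107484852 to 107490482, minus strand) and BATF3 (ENSG00000123685.8, chromosome 1, 212686418 to 212699985, minus strand) were counted too few times to fix a change of moderate size. KLF4, a zinc-finger factor of monocyte differentiation, had 49, 74 and 77 counts in knockdown and 59, 79 and 62 in control. Its log2 fold change was -0.23 with a 95% interval of -0.61 to 0.14. BATF3, the leucine-zipper partner of IRF8 in dendritic cells, had 44, 47 and 61 counts in knockdown and 40, 43 and 26 in control. Its log2 fold change was 0.25 with a 95% interval of -0.23 to 0.73. For both, the highest knockdown value was that of the third knockdown library, at 6.32 CPM of KLF4 and 5.01 CPM of BATF3, and without that library the log2 fold changes were -0.40 for KLF4 and 0.05 for BATF3. Other libraries moved these values too: KLF4 stood at -0.083 without knockdown replicate 1, and BATF3 at 0.37 without knockdown replicate 2 and 0.096 without control replicate 3. With 1 library left out KLF4 ran from -0.40 to -0.083 and BATF3 from 0.05 to 0.37, and neither passed the threshold. The part of the globin counts of that library in these values was not tested.

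**Figure D3:**
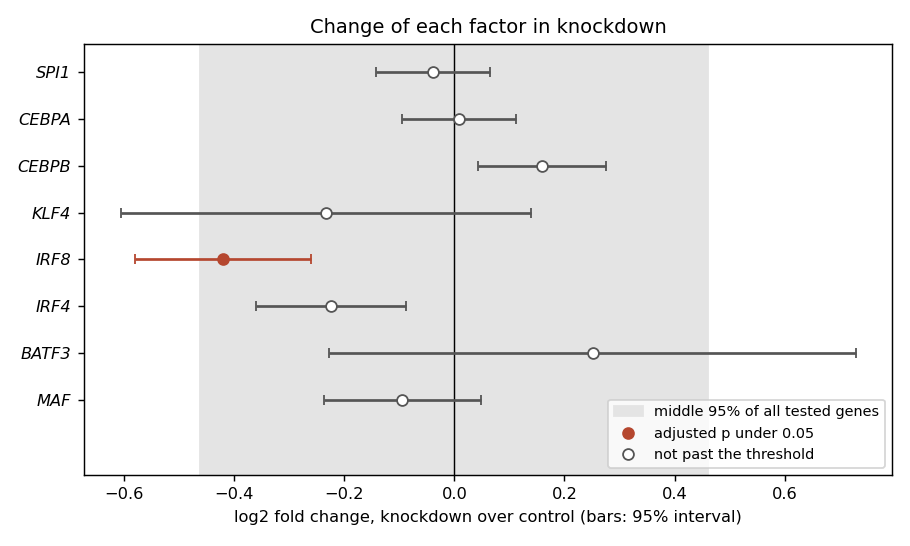
Log2 fold change of each factor, knockdown over control, with its 95% interval, over a grey band that spans the middle 95% of all tested genes (-0.46 to 0.46). Filled points passed an adjusted p of 0.05. IRF8 alone is filled, the intervals of IRF4 and CEBPB also lie to 1 side of 0, and those of KLF4 and BATF3 are the widest.

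In all, 1 of the 8 members passed the threshold (2.83% of all genes) and 3 did not overlap between groups (20.0% of all genes). The median log2 fold change of the 8 was -0.07, against -0.0019 over all tested genes. For 5 of the 8 members, SPI1, CEBPA, MAF, IRF4 and IRF8, the coefficient of variation was lower between knockdown than between control libraries. Whether this was particular to the members was not tested. Pooled over the counted genes of the table, control libraries also differed more from each other than knockdown libraries did. The chi-square per degree of freedom was 2.79 to 6.79 for control pairs and 1.90 to 2.28 for knockdown pairs. The share of all genes with a lower coefficient in knockdown was not computed. In knockdown it was 2.32% for SPI1, 2.99% for CEBPA, 0.985% for MAF, 2.11% for IRF4 and 3.29% for IRF8, against 6.17% for SPI1, 5.95% for CEBPA, 11.2% for MAF, 7.29% for IRF4 and 7.18% for IRF8 in control. For CEBPB it was 7.4% in knockdown and 2.37% in control. For IRF8, counting alone would give about 5.39% in knockdown and 5.05% in control. For MAF and IRF4 it would give about 3.11% and 4.02% in knockdown and 3.26% and 4.04% in control. In knockdown IRF8, MAF and IRF4 thus varied less than counting alone gives. SPI1 and CEBPA varied more than the 1.13% and 1.24% that counting gives in knockdown. KLF4 and BATF3 varied by 22.8% and 23.3% in knockdown and by 8.7% and 21.0% in control, where counting alone gives 12.2% and 14.0% in knockdown and 12.2% and 16.6% in control.

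**Figure D4:**
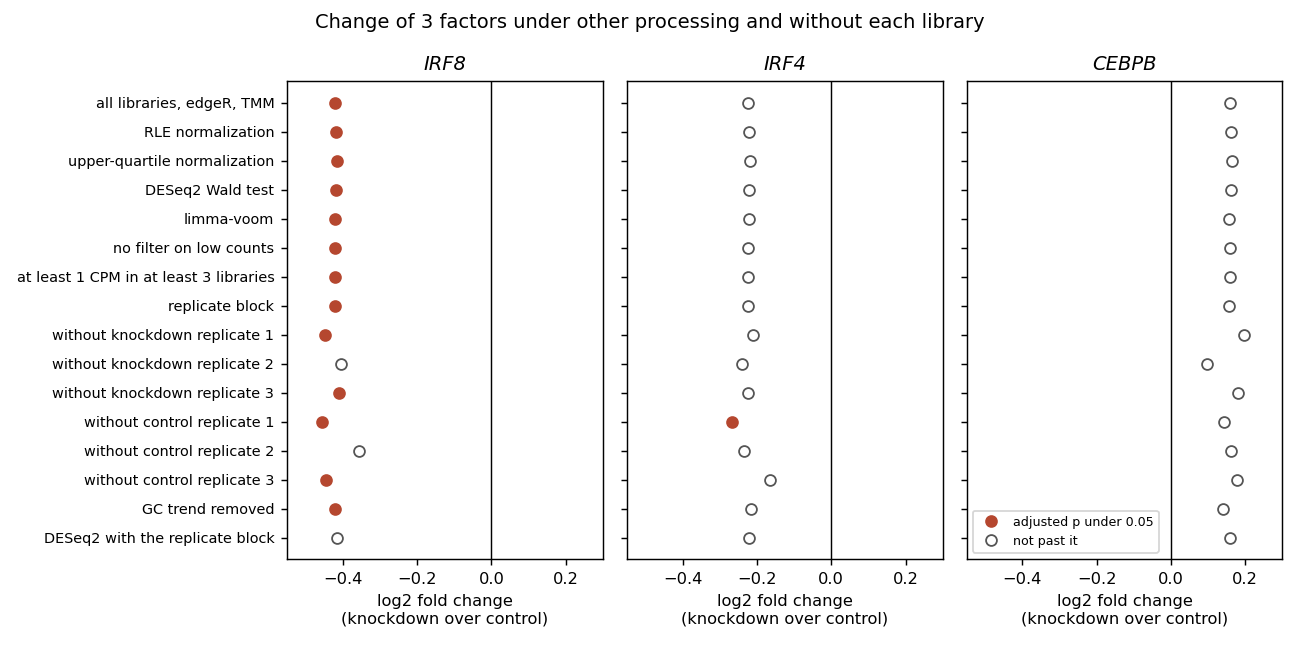
Log2 fold change (knockdown over control) of IRF8, IRF4 and CEBPB under the reported processing and 15 other settings, with filled points where the adjusted p was under 0.05. IRF8 stays between -0.45 and -0.36 and loses its call in 3 settings, IRF4 is filled once, and CEBPB never.

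Few relatives of the members passed the threshold. Of 57 related and partner factors, 51 were tested, 2 rose and 1 fell (5.88% of those tested, against 2.83% of all genes), with a median log2 fold change of -0.01. ETS2, an ETS factor downstream of growth signals, fell: it had 155, 148 and 159 CPM in knockdown and 173, 185 and 174 CPM in control (log2 fold change -0.20, edgeR adjusted p = 0.0319). It was the 1 of 8 tested ETS relatives past the threshold. The median of these 8 was -0.12, 5 lay below 0, and 4 did not overlap between groups (20.0% of all genes), all of them lower in knockdown. In sum the ETS relatives stood at 894 to 904 CPM in knockdown and 963 to 978 CPM in control. KLF3, a KLF repressor, rose, with 73.9, 68.5 and 67.7 CPM in knockdown and 58.5, 56.5 and 60.2 CPM in control (0.26, adjusted p = 0.0225), 1 of 8 tested KLF relatives. PPARGC1B, a coactivator of the IL-4 response known from mouse macrophages, rose, with 51.3 ± 1.76 CPM in knockdown and 42.4 ± 2.64 CPM in control (0.27, adjusted p = 0.0319), 1 of 9 IL-4 response factors. Each of these 3 calls was lost when any 1 knockdown library or control replicate 2 was left out, with adjusted p up to 0.203 for ETS2, 0.139 for KLF3 and 0.158 for PPARGC1B, and that of PPARGC1B also without control replicate 1 (0.06).

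None of the 6 tested relatives of IRF8 and IRF4 passed. Their log2 fold changes ran from -0.13 (IRF2, a repressor of interferon genes) to 0.12 (IRF7, which drives type I interferon), and the smallest adjusted p was 0.336. None of 4 C/EBP relatives passed, with CEBPD, an acute-phase factor, at 0.16 and the stress factor DDIT3 at 0.21. None of 4 MAF relatives passed, with the small MAF proteins MAFF at 0.11 and MAFK at 0.08. Among 6 BATF and JUN factors none passed, with the repressor JDP2 at 0.28 and JUN at -0.08. Among 7 tested factors of progenitors none passed, with RUNX1 at -0.09 and LMO2 at 0.06. Of STAT6, the signal transducer of the IL-4 receptor, the log2 fold change was -0.06 (adjusted p = 0.606), a value picked out after it was seen.

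**Figure D5:**
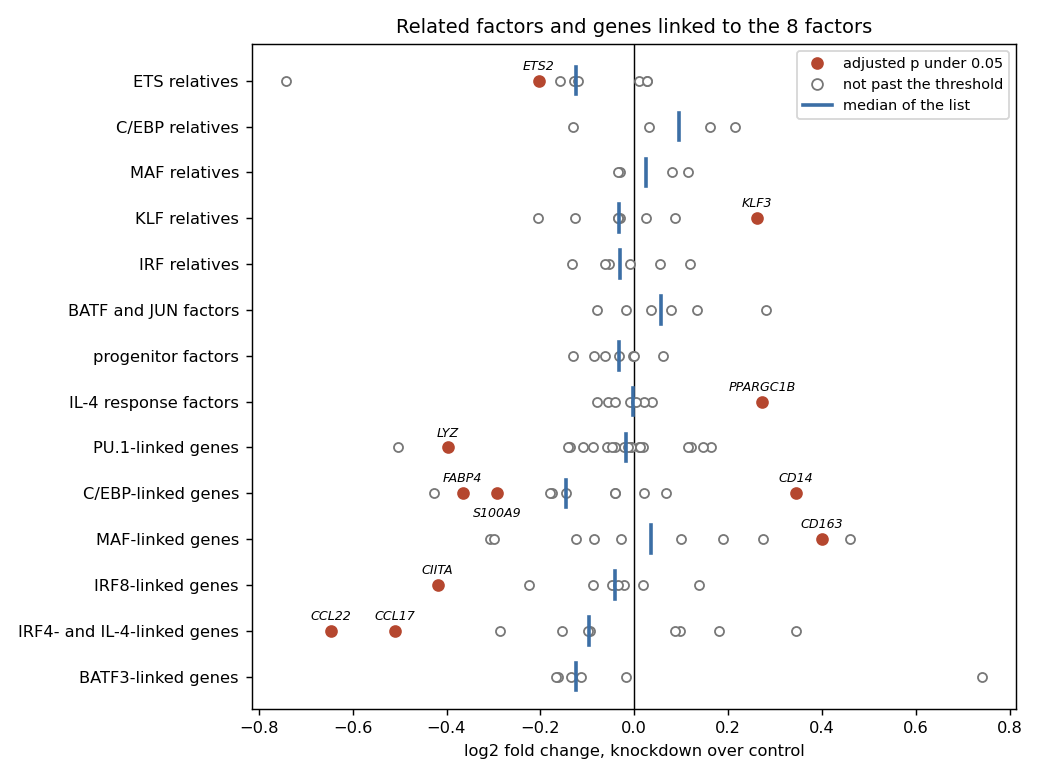
Log2 fold change (knockdown over control) of the tested genes in 14 lists of related factors and of genes linked to the 8 factors, with filled points for an adjusted p under 0.05 and a bar at the median of each list. The filled genes are ETS2, KLF3, PPARGC1B, LYZ, FABP4, S100A9, CD14, CD163, CIITA, CCL22 and CCL17, and the list medians lie between -0.15 and 0.10.

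Genes linked to the members in the literature were read beside them. Of 73 such genes 62 were tested, 2 rose and 6 fell (12.9%, against 2.83% of all genes), with a median log2 fold change of -0.04. These lists were drawn up with earlier results of the same data known, so their counts are not separate evidence.

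Among 8 tested genes linked to IRF8, CIITA fell, the coactivator that switches on major histocompatibility class II genes. It had 38.8 ± 3.67 CPM in knockdown and 51.7 ± 5.14 CPM in control (a log2 fold change of -0.42, SE 0.08, with an edgeR adjusted p of 0.0112). All knockdown libraries lay below the controls, and, as for IRF8, the call was lost without knockdown replicate 2 (adjusted p = 0.106) or control replicate 2 (0.0977). The list's median was -0.04.

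Among 20 genes bound or driven by PU.1, LYZ fell, which encodes the secreted antibacterial enzyme lysozyme. It had 92.3, 80.0 and 88.3 CPM in knockdown and 114, 112 and 117 CPM in control (-0.40, adjusted p = 0.000928), and it passed in all 15 other settings. The median of the 20 was -0.02, beside -0.04 for SPI1 itself, and 13 of them lay below 0.

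Of 11 tested C/EBP-linked genes, 1 passed the threshold as higher and 2 as lower. The median of the 11 was -0.15, and 8 of them lay below 0. Between groups 6 did not overlap (20.0% of all genes), and of these CD14 alone was higher in knockdown. CD14, the lipopolysaccharide co-receptor, rose to 133 ± 4.64 CPM in knockdown, against 105 ± 7.89 CPM in control (0.34, adjusted p = 0.003), and passed in all 15 other settings. The calprotectin subunit S100A9 had 236 ± 12.7 CPM in knockdown and 289 ± 25.6 CPM in control (-0.29, adjusted p = 0.0146), and the fatty-acid carrier FABP4 had 1270 ± 40.7 CPM in knockdown and 1637 ± 253 CPM in control (-0.37, adjusted p = 0.0167). The calls of S100A9 and FABP4 were lost without knockdown replicate 1 or 2 or control replicate 2, with adjusted p up to 0.135 for S100A9 and 0.0849 for FABP4, and that of FABP4 also without knockdown replicate 3 (0.11) and under DESeq2 (0.0959). Among 10 tested genes linked to MAF, the haemoglobin scavenger receptor CD163 rose, with 46.4 ± 3.51 CPM in knockdown and 35.2 ± 3.69 CPM in control (0.40, adjusted p = 0.0127), and its call was lost without knockdown replicate 1 or 2 or control replicate 2 (adjusted p up to 0.119). The median of the 10 was 0.04, and 5 of them lay below 0. Between groups 4 did not overlap (20.0% of all genes), with C1QC lower and CD163, MERTK and STAB1 higher in knockdown.

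Among 10 tested IL-4-induced genes linked to IRF4, the chemokines CCL17 and CCL22 fell. CCL17 had 226, 221 and 217 CPM in knockdown and 328, 328 and 289 CPM in control (-0.51, adjusted p = 4.92e-05). CCL22 had 654, 657 and 663 CPM in knockdown and 899, 1052 and 1136 CPM in control (-0.65, adjusted p = 4.49e-05). Both passed in all 15 other settings. The other 8 did not pass, and their list had, with them, a median of -0.10, with 6 of the 10 below 0. The list did not move as 1. CD209 (0.18, edgeR adjusted p = 0.0792) and FCER2 (0.34, adjusted p = 0.0853) lay higher in every knockdown library than in any control library. ALOX15 (-0.09, adjusted p = 0.337) lay lower in every knockdown library. These genes were picked out after their values were seen. None of 6 tested genes of BATF3-dependent dendritic cells passed, with thrombomodulin (THBD), which binds thrombin, at -0.16 and the adhesion molecule CADM1 at -0.13. THBD passed without control replicate 1 (-0.22, adjusted p = 0.0131).

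With DESeq2 and the replicate block together, ETS2 (adjusted p = 0.159), KLF3 (0.2), PPARGC1B (0.281), S100A9 (0.301), FABP4 (0.222), CD163 (0.0514) and CIITA (0.0591) did not pass, and LYZ, CD14, CCL17 and CCL22 did.

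Of the 147 other tested members and listed genes, the ones whose level ran most like that of IRF8 over the 6 libraries were ETS2 (Pearson r of log2 CPM 0.966) and CCL17 (0.96). These r values describe 6 libraries that share the difference between the groups. Of mitochondrial mRNA, a sign of RNA quality, 12 of 13 transcripts had a log2 fold change below 0, as IRF8 and IRF4 did, with a median of -0.16 and MT-ND3 past the threshold (-0.19, adjusted p = 0.024). MT-ND3 alone of the 13 did not overlap between groups. The sum of the 13 did overlap, at 20094 to 20769 CPM in knockdown and 19122 to 25552 CPM in control. The MT-ND3 call was lost without any 1 knockdown library or without control replicate 2 (adjusted p up to 0.137). Dendritic cell markers stood at 992 to 1023 CPM in knockdown and 1071 to 1140 CPM in control in sum, nearly all of it LAMP3 (-0.14, adjusted p = 0.0903). None of the 5 tested passed, 3 of them lay below 0, and CD1C lay at 0.10. LAMP3 did pass under DESeq2 (adjusted p = 0.0297) and without control replicate 1 (-0.17, adjusted p = 0.00865). Granulocyte markers stood at 69.3 to 74.3 CPM in knockdown and 75.5 to 84.2 CPM in control, with AZU1 at -0.18 and ELANE at -0.15, neither past the threshold. Their part in the lower IRF8 and IRF4 was not tested.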

How the data were processed

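Polyadenylated RNA was measured in 3 knockdown and 3 control THP-1 libraries, assigned to groups from their titles. The deposited values are expected counts (estimated counts) per gene symbol, whole as deposited; the submitters' processing notes list Salmon 0.11.2, DESeq2 and hg38 without saying what each did. Every row sums to at least 10. The annotation and strand setting are not known from the sources used.

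Scaling was by TMM and the test was edgeR 4.0.16 quasi-likelihood in R 4.3.3, after filterByExpr, with a term for group alone; p-values are two-sided and Benjamini-Hochberg adjusted over the 13405 genes kept, and 0.05 was the threshold. The standard error is the log2 fold change divided by the square root of F. Other settings used limma 3.58.1 and DESeq2 1.42.0, other normalizations and filters, a replicate block and the omission of each library. Fits were tested on simulated data. Transcript lengths, GC content and positions came from GENCODE 29.

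The members and lists were chosen with earlier results of these data known. Named were all members and, in each list, the genes past the threshold or, with none, the 2 with the smallest p, plus the 2 genes most like IRF8; some named by this rule, and 1 of the 3 ratios, are not reported here. No 2 libraries of a group agreed within counting noise (chi-square per degree of freedom 1.90 to 2.28 in knockdown and 2.79 to 6.79 in control). Intervals reflect the spread between libraries; the limit of 3 counts covers counting error only.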

Additional observations from a re-analysis of the deposited data

How the results depend on the processing

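IRF8 kept its direction in all 15 alternatives and passed in 12. It did not pass without knockdown replicate 2, without control replicate 2, or with DESeq2 and the replicate block together (-0.41, adjusted p = 0.0979), a setting chosen after seeing the data. With 1 library left out its log2 fold change ran from -0.45 to -0.36 and that of IRF4 from -0.27 to -0.16. CEBPA turned sign without control replicate 1, control replicate 2 or knockdown replicate 2, running from -0.024 to 0.060, and with the GC trend removed (-0.0088, chosen after seeing the data). MAF ran from -0.15 to 0.00012, the upper end being without control replicate 3. With 1 library left out 139 to 542 genes, 0 to 2 members and 4 to 16 listed genes passed, against 379, 1 and 11. DESeq2 with the block gave 146, 0 and 4. With mean transcript lengths 3 members changed place in the order of levels in knockdown, and in control IRF8 and MAF exchanged places, as did KLF4 and BATF3. NKG7 turned sign with RLE (0.0024), upper-quartile normalization (0.0038), DESeq2 (0.00078), and without knockdown replicate 1 or control replicate 3 (-0.098 to 0.17 with 1 library left out) and PAX5 without knockdown replicate 1 (-0.033 to 0.13). The cause was not tested. Same-numbered libraries of the groups correlated at 0.0948, 0.117 and 0.063 in their deviations, each above its other pairs, which is a hint from the data only. The replicate block in edgeR gave 488 genes and 1 member, and IRF8 at an adjusted p of 0.00652. Counts of 26 to 79 per library limit BATF3 and KLF4.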
